A study of Mus musculus with 6 samples.

Results

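Small RNAs of Hen1 knockout spermatogonial stem cells were compared between a library made after NaIO4 oxidation and an untreated library. These 2 libraries are 2 of the 6 libraries of the series, with 1 library in each group. They were chosen by their labels as the knockout pair with and without the oxidant. The groups used were the hen1 knock-out treated by NaIO4, the hen1 knock-out untreated, the wild type with NaIO4 and the wild type untreated, and a MILI immunoprecipitate served to mark bound sequences. A Mili knock-out library entered only the search for candidate spike-ins. Per the labels, all cells were a culture of spermatogonial stem cells from a 15-day-old F1 male of C57BL/6 and DBA2 that carried an actin-EGFP transgene, kept on mouse embryonic fibroblast feeders. The strain label is C57BL/6. The knockout was made with a spCas9 plasmid and sgRNAs against mHen1, and colonies were picked singly and read by Sanger sequencing. The knockout may thus stand for 1 clone, and the sample titles do not say whether both knockout libraries came from the same clone. The NaIO4 libraries came from total RNA of which 4 µg, with spike-ins, was held for 1 hr on ice in the dark with 2 µl of 200 mM NaIO4.

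Hen1 (gene Henmt1 in mouse) is the methyltransferase that places a 2′-O-methyl group on the 3′ end of piRNAs. piRNAs are small RNAs of the germ line that are bound by Piwi proteins such as MILI (gene Piwil2) and guide the silencing of transposons. NaIO4 opens the last ribose of an RNA that has free 2′ and 3′ hydroxyls, and such an RNA is a poor substrate for 3′ adapter ligation. RNAs that carry the methyl group resist, so the share of a small RNA that survives NaIO4 is a usual readout of its 3′ end. microRNAs of animals mostly lack this methyl group, and they serve as the usual unprotected class.

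Values are reads of 18 to 35 nt, given as a percentage of all such reads or as reads per 1000000 of them (RPM). The ratio is the share with NaIO4 over the share untreated, and the brackets after it give the 95% interval from the read counts. The intervals cover counting error only, and with 1 library per group no difference could be set against a spread between replicates. No test was made for that reason. The shares of a library sum to a fixed total, so a class can gain share because others lose it. Reads of 18 to 35 nt numbered 2604390 in the NaIO4 library of the knockout and 11702714 in its untreated library, against 10282416 and 7322408 in the NaIO4 and untreated wild type libraries.

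The sequences that follow are examples of piRNA-like reads whose share was lower with NaIO4 in the knockout. They are the most read sequence of 5 of the source genes with the most piRNA-like reads, where piRNA-like means 25 to 31 nt with no match to a known small RNA class. The capital marks the last base, whose ribose is the one Hen1 modifies, and positions are on GRCm38 (mm10), sense to the gene.
D10Wsu102e, 3′UTR in exon 4 of 4, chr10:83381475-83381501, + strand: taactcgagagaaaaccacacctgatG
Gm38246, lincRNA with 1 exon, chr3:51103881-51103909, + strand: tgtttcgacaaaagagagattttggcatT
Gm30948, lincRNA, exon 4 of 4, chr12:115286884-115286909, + strand: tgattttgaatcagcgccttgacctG
Abl2, 3′UTR in exon 13 of 13, chr1:156646324-156646349, + strand: tagagatctgcactttgtagttgaaG
Fth1, 5′UTR in exon 2 of 5, chr19:9982739-9982765, + strand: ttcaacagtgcttgaacggaacccggT
All 5 begin with t, the base with which most piRNAs begin. In the knockout their ratios were 0.529 (0.384 to 0.728) for D10Wsu102e, 0.218 for Gm38246, 0.111 for Gm30948, 0.205 for Abl2 and 0.167 for Fth1. In wild type the Gm30948 read was also lower with NaIO4, at 0.645, while the others were at 1.15 to 1.93.

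The first set of sequences below shows short reads picked because they were frequent with NaIO4. Each pair comes from 1 site in a 3′UTR, and a short read and a long MILI-bound read start at the same base. The short reads were also in the MILI immunoprecipitate, with more reads there than the long ones. The capital of the short read marks its last base. The capitals of the long read mark the 5 bases that follow the end of the short one.
Ctdsp2, chr10:126999902-126999921, + strand, short: taagagtctgtttatatttT
Ctdsp2, chr10:126999902-126999928, + strand, long: taagagtctgtttatattttTGGAAta
Wipf2, chr11:98902348-98902367, + strand, short: tgggaatgtcgtctcttcaG
Wipf2, chr11:98902348-98902374, + strand, long: tgggaatgtcgtctcttcagTGGAAga
Zfp346, chr13:55134182-55134203, + strand, short: ttggaagacctctgtgtttaaA
Zfp346, chr13:55134182-55134210, + strand, long: ttggaagacctctgtgtttaaaTGGATtc
The long reads hold TGGAA after the short read's end at 2 of the 3 sites and TGGAT at the other.

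A second set shows fragments of 5S rRNA, a small RNA of the large ribosomal subunit that is made from many gene copies. Capitals mark the run at which most of the resisting fragments end.
5S rRNA, 25 nt: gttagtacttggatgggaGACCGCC
5S rRNA, 24 nt: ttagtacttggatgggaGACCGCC
5S rRNA, 22 nt: agtacttggatgggaGACCGCC
5S rRNA, 21 nt: gtacttggatgggaGACCGCC
The 4 fragments match 50 annotated 5S genes on 8 chromosomes, where TGGGA follows them.

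The 21 nt read of the Mir5099 locus was the most read single sequence of both knockout libraries. The capitals mark the 20 nt that it and the 22 nt read share with the RefSeq hairpin of Mir5099 at chr12:36816205-36816278, + strand (GRCm38.p6). The first bases of both reads differ from the hairpin.
Mir5099, 21 nt: tCTTAGATCGATGTGGTGCTC
Mir5099, 22 nt: ctCTTAGATCGATGTGGTGCTC

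piRNA-like reads fell to 19.2% of the library with NaIO4 in the knockout, against 53.5% untreated, a ratio of 0.358 (0.357 to 0.359). In wild type the same reads made up 61.7% with NaIO4 and 36.6% untreated, a ratio of 1.69. The ratio of the knockout was 0.212 times that of the wild type. MILI-bound sequences, which are piRNA-like with at least 10 reads in the MILI immunoprecipitate, gave 5.61% with NaIO4 and 15.7% untreated in the knockout, a ratio of 0.358 (0.356 to 0.360), against 1.66 in wild type. Those that were also at least as frequent in the immunoprecipitate as in untreated wild type had a lower ratio in the knockout, 0.277 (0.275 to 0.279), and a higher one in wild type, 2.05. Of the classes with a wild type ratio above 1, piRNA-like reads were the only one to lose share in the knockout. Their loss was also the largest of all classes in percentage points. rRNA fragments, at 3.71 in wild type, and the Mir5099 locus, at 1.15, gained share in the knockout, with ratios of 15.7 and 3.89.

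microRNAs had 2.66% of reads with NaIO4 and 8.17% untreated in the knockout, a ratio of 0.326 (0.323 to 0.328), and a ratio of 0.0713 in wild type. piRNA-like reads and microRNAs therefore kept nearly the same fraction of their share in the knockout, while in wild type they stood far apart. Scaled to microRNA reads, the piRNA-like ratio of the knockout was 1.10. It was higher than the untreated level on that scale, so the direction of the piRNA-like change depends on the scaling, and the loss is one that piRNA-like reads and microRNAs had alike.

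Fragments of rRNA made up 15.8% of the library with NaIO4 in the knockout, against 1.01% untreated, a ratio of 15.7 (15.6 to 15.8). Nearly all of this came from 5S rRNA, with 14.6% with NaIO4 and 0.543% untreated. Fragments of the 45S precursor, the source of the other cytoplasmic rRNAs, rose less, with 1.25% with NaIO4 and 0.459% untreated, a ratio of 2.72. The Mir5099 locus made up 33.6% with NaIO4 and 8.63% untreated, a ratio of 3.89 (3.88 to 3.90), against 1.15 in wild type. Its 21 nt read shown above alone gave 633903 reads with NaIO4 and 744553 reads untreated, which is 24.3% and 6.36% of the libraries.

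tRNA fragments had 6.82% with NaIO4 and 10.9% untreated in the knockout, a ratio of 0.628, and their 2 ends moved apart. Fragments from the 5′ side, found by their motif, were at 2.65% with NaIO4 and 8.67% untreated, a ratio of 0.305 (0.303 to 0.308). Fragments of the 3′ side with the full CCA, the tail that every mature tRNA carries for its amino acid, were at 3.35% with NaIO4 and 0.503% untreated, a ratio of 6.65 (6.59 to 6.72). The same fragments with only CC at the end were at 0.0778% with NaIO4 and 0.199% untreated, a ratio of 0.391 (0.374 to 0.409). In wild type the full CCA ends had a ratio of 1.39 and the CC ends 0.582.

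snRNAs, which belong to the spliceosome, had a ratio of 1.62 in the knockout and 0.923 in wild type. snoRNAs, which guide the modification of other RNAs, had a ratio of 1.16 in the knockout and 0.286 in wild type. Mitochondrial fragments were at 1.04% with NaIO4 and 1.85% untreated in the knockout, a ratio of 0.561 (0.554 to 0.569), against 0.119 in wild type. Other small RNAs had a ratio of 0.516 in the knockout and 0.621 in wild type. Reads outside 25 to 31 nt with no class were at 17.98% with NaIO4 and 13.1% untreated in the knockout, a ratio of 1.38, against 0.863 in wild type.

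**Figure D1:**
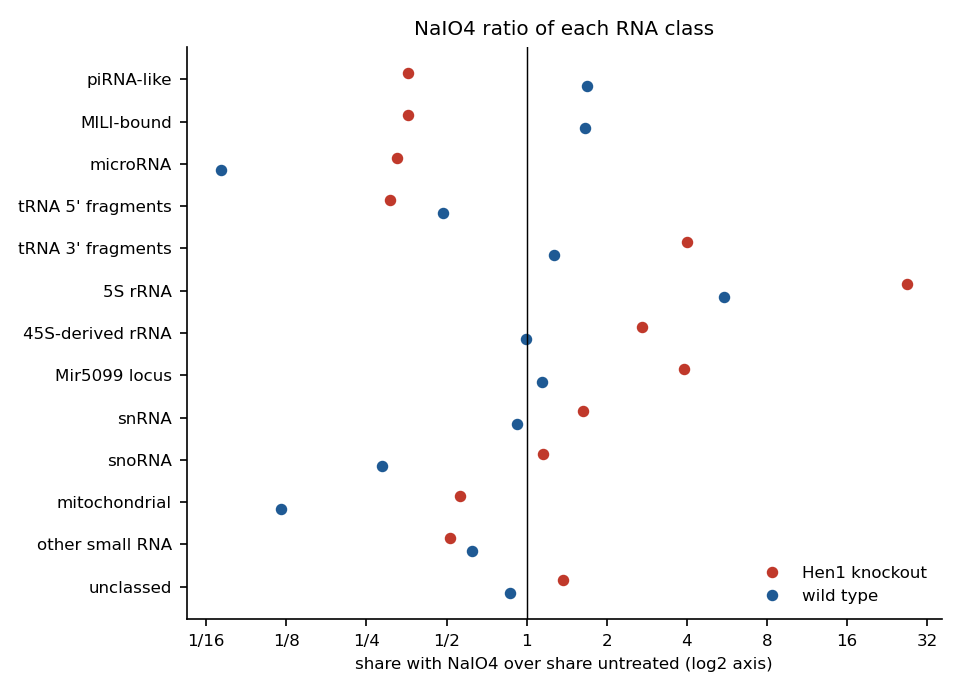
NaIO4 ratio of each RNA class on a log2 axis, in the Hen1 knockout (red) and in wild type (blue). Points are share ratios of 1 library over another and lines their 95% counting intervals, mostly hidden by the points. piRNA-like reads lie at 0.358 in the knockout and 1.69 in wild type, while 5S rRNA lies at 26.8 and 5.53.

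By length, the knockout library with NaIO4 was led by reads of 21 nt, at 29.6% with NaIO4 and 8.98% untreated. Reads of 22 nt were at 15.96% with NaIO4 and 6.52% untreated. The peak of 27 nt, which leads the untreated library at 14.9%, was at 6.92% with NaIO4. From 26 to 31 nt every length, over all classes, kept about the same fraction of its share, with ratios of 0.462 to 0.480. piRNA-like reads alone were less even. Those of 27 nt were at 4.48% with NaIO4 and 13.7% untreated, and those of 31 nt at 0.989% and 1.93%, a smaller relative loss. From 18 to 20 nt the ratios were 2.848 to 3.397. The mean length of all reads was 23.8 nt with NaIO4 and 26.4 nt untreated in the knockout, against 26.8 nt and 25.9 nt in wild type. Within piRNA-like reads the mean length hardly moved, at 27.35 nt with NaIO4 and 27.27 nt untreated in the knockout, against 28.03 nt and 28.08 nt in wild type. Each knockout library thus kept the shorter piRNA-like length relative to wild type, whatever the treatment.

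**Figure D2:**
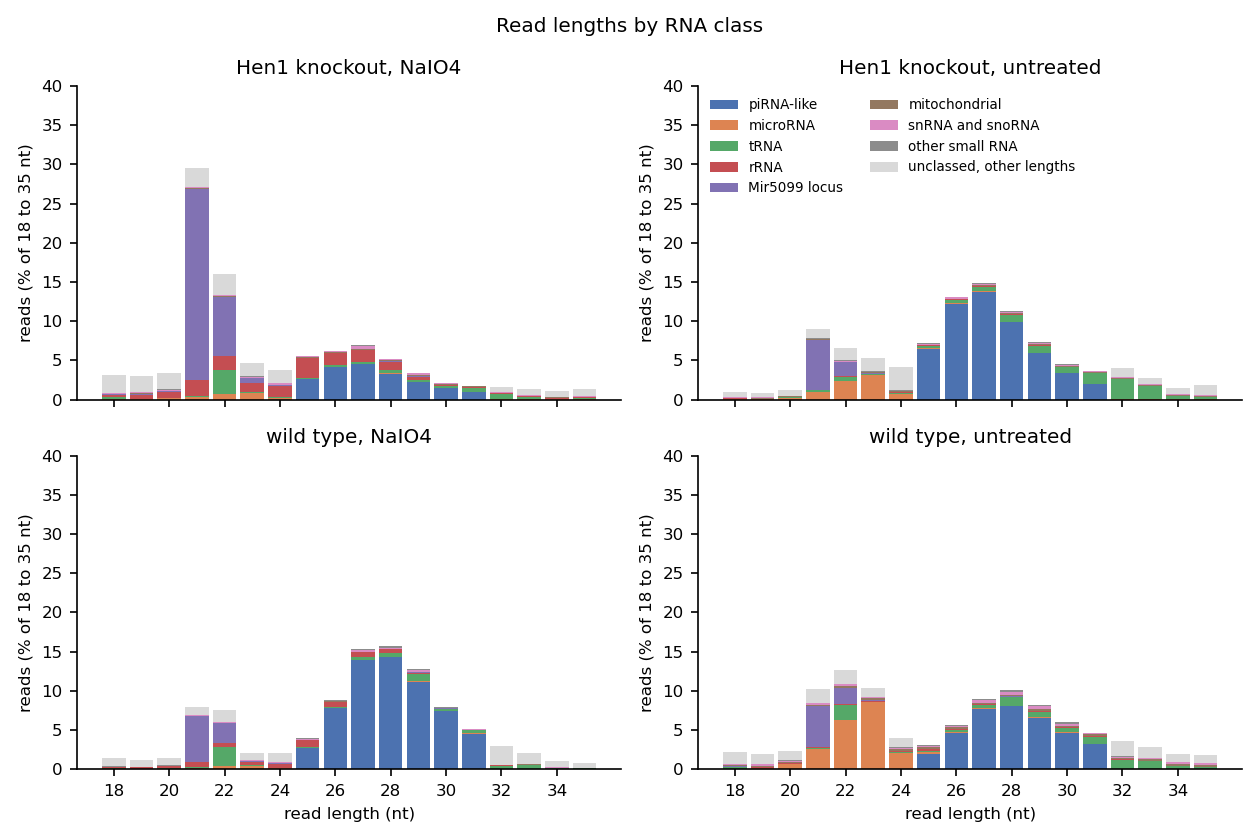
Reads by length (x axis, nt) as a percentage of reads of 18 to 35 nt (y axis), stacked by RNA class, for each library. With NaIO4 the knockout has its highest bar at 21 nt (29.6%), mostly of the Mir5099 locus, while the untreated knockout peaks at 27 nt (14.9%) in piRNA-like reads.

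Genes that give rise to piRNA-like reads lost them alike. Reads that match 1 gene in the sense were summed by gene, and 2219 of 21341 genes with such reads had at least 200 in the untreated knockout library. Of these source genes, 2167 (97.7%) were at least 2-fold lower with NaIO4 in the knockout and 2 (0.0901%) at least 2-fold higher. The median ratio was 0.276, with quartiles of 0.226 and 0.332. In wild type the median was 1.88, and 727 (32.8%) of the same genes were at least 2-fold higher with NaIO4. The knockout ratio lay below the wild type ratio in 2213 of the 2219.

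D10Wsu102e, the gene with the most such reads, had 4374 reads with NaIO4 and 70814 untreated in the knockout, against 74175 and 29983 in wild type. Its ratio was 0.278 in the knockout and 1.76 in wild type, and 99.4% of its untreated reads lay in the 3′UTR. Gm38246, a lincRNA, had 2597 reads with NaIO4 and 44357 untreated in the knockout, a ratio of 0.263 against 1.60 in wild type. For Gm30948, also a lincRNA, the ratio was 0.258 in the knockout and 1.60 in wild type. Abl2, a tyrosine kinase, had a ratio of 0.290 in the knockout and 1.94 in wild type. All 4 show the loss at the level of the gene, with many different sequences behind it: D10Wsu102e had 18951 distinct sequences in the untreated knockout and its most read one held 0.504% of the reads.

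Fth1, the heavy chain of the iron store ferritin, was the one of the 12 most read genes with most of its reads in the coding sequence (64.9%), and its ratio was 0.227 in the knockout and 1.73 in wild type. Cbl, Gabpb2, Tmem245, Cbx5, Scd2 and Trim71 were also among the 12, with ratios of 0.253 to 0.320 in the knockout and 1.72 to 2.09 in wild type. Cbl is a ubiquitin ligase, Cbx5 a heterochromatin protein, Scd2 a fatty acid desaturase and Trim71 a target of let-7. None of the 12 reached its untreated share in the knockout with NaIO4.

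The part of the transcript made little difference. In the knockout the ratio was 0.267 (0.261 to 0.274) for piRNA-like reads in 5′UTRs, 0.289 (0.287 to 0.292) in coding sequences and 0.293 (0.292 to 0.295) in 3′UTRs. Sense reads of long non-coding RNAs were at 0.288 and antisense reads at 0.360. Reads that matched 20 or more genes, a mark of repeats, were at 0.316. Those with no transcript match had the highest ratio, 0.454 (0.453 to 0.456), with 9.64% of the library with NaIO4 and 21.2% untreated.

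Among genes of the piRNA pathway, 6 of 24 had enough reads, and all 6 were at least 2-fold lower there, with a median of 0.277. Piwil2 itself, which encodes MILI, had a ratio of 0.307 from 41 reads with NaIO4 and 600 untreated. Exd1, a component of a complex that makes piRNAs, was at 0.308 and Mael, needed for transposon silencing, at 0.477. Genes of spermatogonial stem cells counted 12 of 22 with enough reads, all 12 lower, with a median of 0.257. Ccnd2, a cyclin of dividing spermatogonia, was at 0.258, Foxo1 at 0.244 and Lin28a, which binds let-7 precursors, at 0.257. Histone genes counted 11 of 74, all lower, with Hist1h1d at 0.275, Hist1h2bb at 0.249 and Hist1h1a at 0.295. Ribosomal protein genes counted 33 of 163, with 32 lower and 1 higher. Rpl4 was at 0.333 and Rps3 at 0.342. These shares lie near the 97.7% of all source genes, so no list stood out from the rest by its count.

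Among genes with at least 1000 untreated reads, Lars2, a mitochondrial leucyl-tRNA synthetase, had the highest ratio, 1.75 (1.62 to 1.89) in the knockout and 0.856 in wild type, with 949 reads with NaIO4 and 2436 untreated. It stood alone there, since the next were Gm4631 at 0.407, Glis3 at 0.388, Six4 at 0.380 and Ankfy1 at 0.377. The lowest were Gm26901 at 0.141, Cox6a1 at 0.147, Cox4i1 at 0.158, Hdac4 at 0.161 and Rpl5 at 0.163. Of these, Rpl5 rested on 1 sequence with 95.9% of its untreated reads, and its wild type ratio was 0.0412. The 2 genes past the 2-fold rule upward had fewer reads and were picked out after their values were seen. They were Rpl13, at 2.87 with 351 reads with NaIO4 and 549 untreated, and Gm26870, at 2.65 with 127 reads with NaIO4 and 215 untreated.

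**Figure D3:**
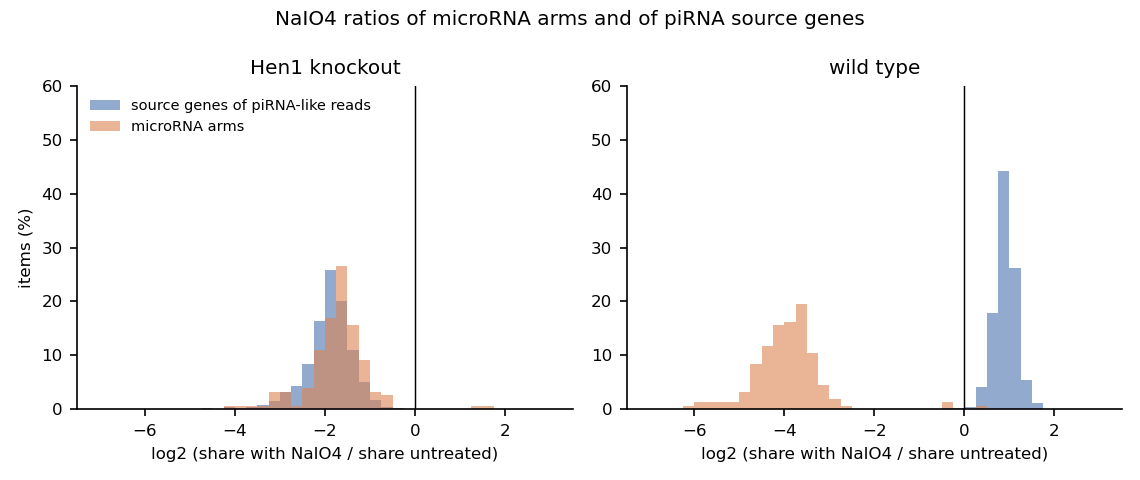
Histograms of the log2 NaIO4 ratio over source genes of piRNA-like reads (blue) and microRNA arms (orange), as a percentage of the items, in the Hen1 knockout (left) and wild type (right). In the knockout both lie together, with median ratios of 0.276 and 0.313. In wild type they are apart, with medians of 1.88 and 0.0642.

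Single sequences were counted where the untreated knockout held at least 50 reads of them, which left 6008 piRNA-like ones. With NaIO4, 5140 (85.6%) of them were at least 2-fold lower and 125 (2.08%) at least 2-fold higher, and 663 had no read. Among MILI-bound sequences 4751 of 5509 (86.2%) were lower and 68 (1.23%) higher. Over all classes 8966 of 11240 sequences (79.8%) were lower and 802 (7.14%) higher. None of the 4217 MILI-bound sequences that were also enriched in the immunoprecipitate was at least 2-fold higher, and 3717 of them were lower. The median ratio of MILI-bound sequences was between 0.218 and 0.246 at every length from 25 to 31 nt, and between 0.228 and 0.237 for every last base. The few that were at least 2-fold higher did differ. They were 6.11% of the sequences ending in G (25 of 409), against 0.615% to 0.998% for the other last bases, and 8.41% of those of 31 nt (9 of 107), against 0.739% at 27 nt.

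The most read piRNA-like sequences of the untreated knockout were repeats by their matches. One of 27 nt, sense to 47 genes so that its source could not be told, had 684 reads with NaIO4 and 10572 untreated, a ratio of 0.291 in the knockout and 1.78 in wild type. A sequence of 28 nt that also matched 47 genes, the one with the most reads in the immunoprecipitate among the named sequences (184820), had 588 reads with NaIO4 and 9026 untreated, a ratio of 0.293 in the knockout and 1.71 in wild type. The MILI-bound sequences with the highest ratios were another kind, with no sense match to a transcript for any of the 5. The first of them had 3148 reads with NaIO4 and 2769 untreated, a ratio of 5.11 in the knockout and 0.796 in wild type, but only 51 reads in the immunoprecipitate.

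The first base differed between what was kept and what was lost. Of piRNA-like reads 67.4% began with T with NaIO4 and 82.1% untreated in the knockout, against 83.0% and 77.9% in wild type. Most of this lay in reads with no gene: among reads sense to protein-coding genes the shares were 82.6% with NaIO4 and 85.2% untreated in the knockout. A at the tenth base, the mark of the amplification cycle of piRNAs, was at 32.4% with NaIO4 and 31.1% untreated. Untemplated bases at the 3′ end are a feature of small RNAs without the methyl group. They were counted only among piRNA-like reads that match a transcript in the sense, whole or without their last 1 to 3 bases. Of those reads 15.6% with NaIO4 and 17.7% untreated carried such bases in the knockout, against 5.15% and 6.22% in wild type. Tails of T were at 8.04% of the same reads with NaIO4 and 9.21% untreated in the knockout. Among piRNA-like reads placed on transcripts in this way, tails were thus slightly less frequent in those that remained.

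Reads of 20 to 22 nt that start as a MILI-bound sequence does made up more of the reads that remained. Among reads with the first 20 nt of a MILI-bound sequence, 3.05% were 20 nt long with NaIO4 and 0.280% untreated in the knockout. At 21 nt the shares were 3.66% with NaIO4 and 0.561% untreated, and at 22 nt 5.004% with NaIO4 and 1.40% untreated. The commonest length stayed at 27 nt, with 20.8% with NaIO4 and 23.6% untreated. The mean over these reads was 26.4 nt with NaIO4 and 27.1 nt untreated in the knockout, against 28.2 nt in both wild type libraries.

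**Figure D4:**
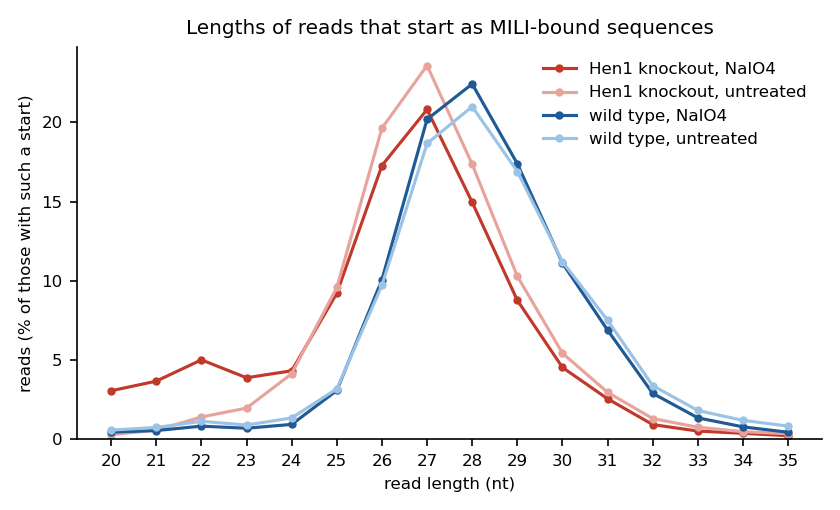
Length (x axis, nt) of reads that begin with the first 20 nt of a MILI-bound sequence, as a percentage of those reads in each library (y axis). Reads of 20 to 22 nt form a shoulder in the knockout library with NaIO4 (5.004% at 22 nt) that the untreated knockout lacks (1.40%).

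The pairs of sequences shown above are examples. The 20 nt read of Ctdsp2 had 320 reads with NaIO4 and 70 untreated in the knockout, a ratio of 20.5, against 537 and 185 reads in wild type, a ratio of 2.07. The 27 nt read that starts with it had 1 read with NaIO4 and 27 untreated. For Zfp346 the 22 nt read had 260 reads with NaIO4 and 50 untreated, a ratio of 23.4, and the 29 nt read had 0 with NaIO4, which allows up to 3, and 20 untreated. The short read of Wipf2 had 109 with NaIO4 and 29 untreated, a ratio of 16.9. These pairs were chosen for the number of short reads with NaIO4, so the high ratios of the short reads follow from the choice, and the long reads are too few to compare. In the MILI immunoprecipitate the short and the long read had 909 and 29 reads for Ctdsp2, 826 and 17 for Zfp346, and 919 and 118 for Wipf2. In untreated wild type they had 185 and 6, 372 and 10, and 119 and 11, in the same order.

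The bases beyond the 3′ end of a read went with its ratio. Each read with an exact sense match was extended by 5 bases in its reference sequence, and the bases were compared between the libraries. Over reads in no small RNA class, those followed by TGGAA made up 16.6% with NaIO4 and 0.836% untreated in the knockout, against 2.06% and 2.31% in wild type. Most of these reads, 74.9% with NaIO4 and 96.4% untreated in the knockout, were followed by bases other than TGG. The bases after reads of the Mir5099 locus and after tRNA ends with the full CCA were not compared. At 0.195% of all transcript positions the 5 bases are TGGAA. The ratio of reads followed by TGGAA was 8.14 in the knockout and 1.52 in wild type, and it ranked first among 1024 runs of 5 bases. TGGAT at 3.50, TGGGA at 2.28, AATGA at 2.06 and TGGAG at 1.95 came next. The median over runs that do not begin with TGG was 0.310. Of the 64 possible starts of 3 bases TGG had the highest ratio, 2.88 (2.85 to 2.90), and the other starts lay between 0.257 and 0.515.

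Short reads had a higher ratio with TGG than piRNA-like reads did. From 18 to 24 nt, reads in no class followed by TGG were 51.4% of those with a match with NaIO4 and 7.84% untreated in the knockout, against 34.0% and 27.9% in wild type. Their ratio was 7.99 in the knockout, and that of reads with any other bases was 0.642. Among piRNA-like reads the share followed by TGG was 8.26% with NaIO4 and 2.87% untreated. Their ratio was 0.840, and 3.21 for TGGAA alone, while piRNA-like reads with other next bases had a ratio of 0.276 in the knockout and 1.81 in wild type. From 32 to 35 nt the ratios were 3.04 with TGG and 0.288 with other bases. Once reads followed by TGG were set aside, long and short reads of transcripts both fell. The fall was slight for reads of 20 to 22 nt in no class, with a ratio of 0.922 (0.910 to 0.934).

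In the known classes compared, the summed ratio of reads followed by TGG was also above that of reads with other next bases. For 5S rRNA 93.4% of matched reads with NaIO4 were followed by TGG, mostly TGGGA after the shared end, and 67.7% untreated, with ratios of 38.3 and 5.65 for TGG and other bases. For snRNAs the ratios were 5.47 with TGG and 1.12 with other bases, for snoRNAs 3.35 and 0.966, and for mitochondrial reads 6.62 and 0.407. microRNA reads, of which 2.13% with NaIO4 and 0.711% untreated were followed by TGG, had ratios of 0.991 and 0.326. By sequence, with at least 50 untreated reads each, 17 of 17 from 5S rRNA followed by TGG, 31 of 33 from snRNAs, 19 of 23 from snoRNAs, 12 of 17 mitochondrial ones and 37 of 46 in no class of 18 to 24 nt were at least 2-fold higher. piRNA-like sequences counted 10 of 139. Of microRNA sequences followed by TGG 3 of 20 were higher and 15 lower, with a median ratio of 0.284, against 0.293 with other next bases, so by sequence these medians lay close together. With other next bases 4 of 41 sequences from 5S rRNA, 20 of 120 from snRNAs, 39 of 242 from snoRNAs, 6 of 501 mitochondrial ones, 12 of 314 in no class of 18 to 24 nt and 3 of 4041 piRNA-like ones were at least 2-fold higher. For snoRNAs these outnumber the 19 with TGG. TGGAA is also how the 3′ adapter of Illumina's small RNA kits begins, and the labels name Illumina's protocol without the adapter. Its part in the result was not tested.

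**Figure D5:**
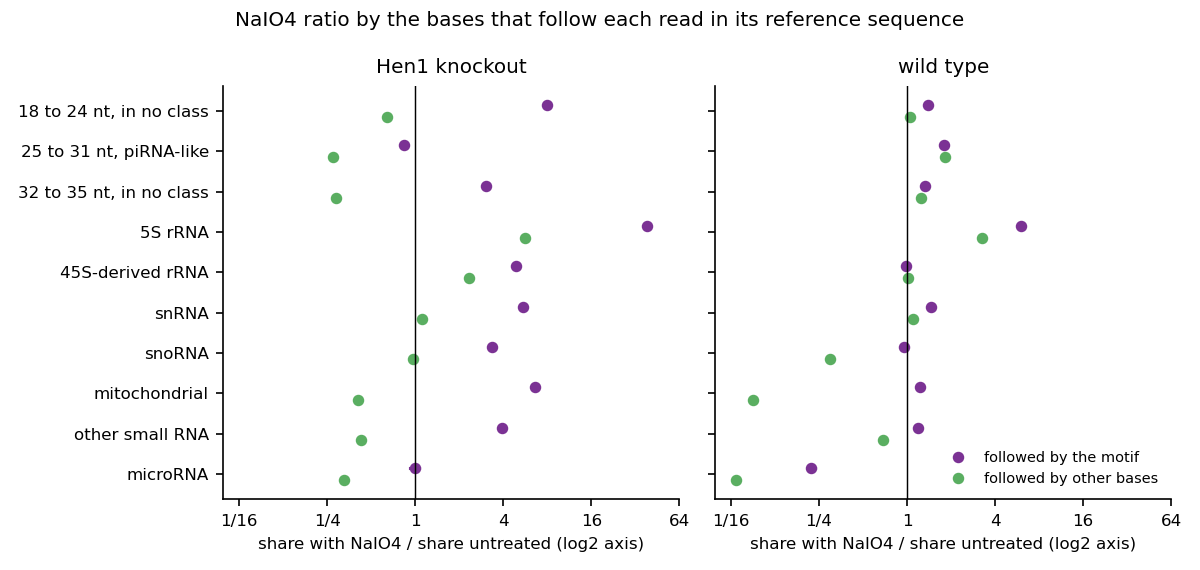
NaIO4 ratio (log2 axis) of reads whose 3′ end is followed in the reference sequence by TGG (purple) or by other bases (green), for each class, in the Hen1 knockout (left) and wild type (right), with 95% counting intervals. For 18 to 24 nt reads in the knockout the ratios are 7.99 and 0.642, and for piRNA-like reads 0.840 and 0.276.

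Within 5S rRNA 1 shared end held most of the reads with NaIO4. Fragments ending in GACCGCC were at 14.1% with NaIO4 and 0.316% untreated in the knockout, a ratio of 44.6 (44.09 to 45.03), against 7.21 in wild type. All 23 such sequences with enough reads were at least 2-fold higher. This end was picked because most of the resisting fragments have it, so the high ratio and the count follow in part from the choice. The 25 nt fragment shown above had 56270 reads with NaIO4 and 8657 untreated, a ratio of 29.2. It had 70 reads in the MILI immunoprecipitate. Fragments with other ends summed to a ratio of 2.10 in the knockout. The shared end and TGG after the read were not the same set. Fragments with other ends had 12396 reads with NaIO4 in the knockout, while 5S reads followed by bases other than TGG had 21551. The highest ratio of a single 5S sequence in the knockout was 389 with other next bases and 97.6 with TGG.

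Among small RNA genes of the other classes, 111 of 224 with enough reads (49.6%) were at least 2-fold lower and 27 (12.1%) higher. snoRNAs gave 17 of the 27 and snRNAs 5, while 41 of 102 snoRNA genes and 8 of 30 snRNA genes were lower. The other 5 were predicted microRNA genes without a Mir name. Of 22 such genes 14 were lower, and their highest ratio was 5.20. Snord65 had 9136 reads with NaIO4 and 8444 untreated, a ratio of 4.86 (4.72 to 5.01) in the knockout and 1.40 in wild type. Snord42a was at 2.95, and its 25 nt fragment, followed by TGGAA, at 2.80. Snord118, the U8 snoRNA needed for rRNA processing, was at 0.659 and Rnu3a, a U3 snoRNA, at 0.515. Rny1, a Y RNA, was at 0.232. The mitochondrial rRNAs differed, with mt-Rnr1 at 1.13 (1.11 to 1.16) and mt-Rnr2 at 0.3997 (0.391 to 0.409). An 18 nt fragment of mt-Rnr1 followed by TGGGA had 1390 reads with NaIO4 and 274 untreated, a ratio of 22.8.

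Most microRNA arms were lower with NaIO4 in the knockout. Of 154 arms with at least 200 untreated reads in the knockout, 143 (92.9%) were at least 2-fold lower with NaIO4 and 2 (1.3%) higher, with a median ratio of 0.313. In wild type 151 (98.1%) were lower, with a median of 0.0642, and the knockout ratio was above the wild type ratio for 153 of 154. The mature sequences that follow are from RefSeq (GRCm38.p6), with the seed, bases 2 to 8, in capitals. They are the most read arms, the lowest and the highest, and pairs that share a seed stand together.
miR-741-3p, chrX:66796809-66796831, - strand: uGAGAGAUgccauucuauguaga
miR-871-3p, chrX:66810438-66810460, - strand: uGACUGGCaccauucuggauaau
miR-470-5p, chrX:66813995-66814017, - strand: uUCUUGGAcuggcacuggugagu
miR-880-3p, chrX:66800540-66800561, - strand: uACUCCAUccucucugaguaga
miR-465c-5p, chrX:66826004-66826025, - strand: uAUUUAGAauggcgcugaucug
miR-465b-5p, chrX:66835811-66835832, - strand: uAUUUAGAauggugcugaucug
miR-16-5p, chr14:61631936-61631957, - strand: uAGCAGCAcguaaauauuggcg
miR-195a-5p, chr11:70235062-70235082, + strand: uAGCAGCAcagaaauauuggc
miR-3535, chr1:86352062-86352087, - strand: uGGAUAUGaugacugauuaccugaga
The positions of miR-465c-5p and miR-16-5p are 1 of 2 annotated copies each.

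The X-linked germ line cluster, which is expressed in testis, gave the most microRNA reads. miR-741-3p had 8565 reads with NaIO4 and 138292 untreated in the knockout, a ratio of 0.278 (0.272 to 0.284), against 16129 and 242134 reads in wild type, a ratio of 0.0474. miR-871-3p was at 0.299 and miR-470-5p at 0.251. miR-880-3p had the lowest ratio of the arms with at least 1000 untreated reads, 0.0616 (0.0554 to 0.0685), with 346 reads with NaIO4 and 25228 untreated, and 0.0140 in wild type. Of the 24 arms of the cluster with enough reads 20 were lower, with a median of 0.351. The 2 arms of miR-465 with 1 seed were at 0.439 for miR-465c-5p and 0.685 for miR-465b-5p.

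miR-183-5p had a ratio of 0.235, miR-182-5p of 0.319 and miR-96-5p of 0.274, and all 10 arms of the stem cell list were lower, with a median of 0.286. let-7, a family of differentiation, had 8 of 8 arms lower, with a median of 0.333. let-7a-5p was at 0.348, let-7f-5p at 0.396 and let-7i-5p at 0.317. The Mir17 and Mir106b clusters, which promote growth, had 10 of 10 lower, with miR-92a-3p at 0.264, miR-25-3p at 0.359 and miR-93-5p at 0.310. The Mir290 and Mir302 clusters of pluripotent cells had 5 of 6 lower, with miR-292a-5p at 0.326, miR-293-3p at 0.393 and miR-295-3p at 0.391. miR-484, made without Drosha, was at 0.152, the one arm of its list with enough reads. These counts lie near the 92.9% of all arms.

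miR-26a-5p, at 0.316, and the 3p sequence that miR-465a, miR-465b and miR-465c share, at 0.274, complete the 10 most read arms with those above. The other low ones were miR-434-5p at 0.114, miR-27a-3p at 0.128, miR-125a-5p at 0.130 and miR-30e-5p at 0.202. High ratios below the 2-fold rule were 0.692 for miR-16-5p, 0.530 for miR-871-5p and 0.528 for miR-195a-5p. miR-3535 had 3598 reads with NaIO4 and 6715 untreated, a ratio of 2.41 (2.31 to 2.51) in the knockout and 0.795 in wild type. Its mature sequence is 26 nt long and its gene, Gm24148, has no Mir name. Whether it is made as a microRNA was not tested. The other arm past the rule was miR-690, picked out after its value was seen, with 326 reads with NaIO4 and 482 untreated, a ratio of 3.04 in the knockout and 0.733 in wild type. Both also lay above the median of all arms in wild type, 0.0642.

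The 3′ ends of microRNA reads had similar shares in the knockout and in wild type. Reads that end at the last base of the mature sequence were 51.0% with NaIO4 and 61.1% untreated in the knockout, against 50.2% and 62.2% in wild type. Those that end 4 nt before it were 2.69% with NaIO4 and 0.240% untreated in the knockout, against 2.92% and 0.304% in wild type. Untemplated tails were nearly as frequent with NaIO4, with T tails at 3.06% with NaIO4 and 3.44% untreated in the knockout.

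Facts of the libraries bear on all of these values. The targeted gene could not be checked, since a small edit leaves no trace in small RNA reads: Henmt1 had 8 reads with NaIO4 and 88 untreated in the knockout, against 16 and 21 in wild type. Markers of spermatogonia, 21 microRNA hairpins of which 19 had reads in the untreated knockout, summed to 10484.6 RPM with NaIO4 and 36047.5 RPM untreated in the knockout. Those of feeder fibroblasts, all 7 with reads, summed to 889 RPM with NaIO4 and 2737 RPM untreated, and their part in the losses was not tested. In such bulk libraries fewer cells of a type and less RNA per cell cannot be told apart. Lists of blood, endothelium, muscle and later germ cells summed to under 50 RPM each in both knockout libraries. Of the distinct sequences of the NaIO4 library 30.4% were also in the untreated library of the knockout, which is 4.39% of the sequences there.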

How the data were processed

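The values of the 6 deposited files are raw counts: the authors collapsed identical reads to 1 line each, and the files have no header and no scaling. Bowtie and mm10 are named, with no role, per the submitters' processing notes. How the adapter was removed, and any length filter of the authors, is not given in the sources used here. That step sets the 3′ end of every sequence in the files.

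Reads of 18 to 35 nt were matched without mismatches to GENCODE M21 transcripts (GRCm38, the build of mm10) with bwa 0.7.19-r1273, in the sense, small RNA classes first. No genome was used, so introns and unannotated regions were not read. tRNA fragments were found by motifs read from the files and from tRNA genes of the reference. microRNA arms came from RefSeq (GRCm38.p6). Bases after a read came from its first exact sense match. Ratios and counts were computed with pandas 2.3.3 and scipy 1.17.1 under Python 3.11.15, in code checked on simulated data.

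Items needed 50 untreated reads per sequence or 200 per arm or gene. Shares have exact 95% intervals and ratios log-scale intervals, all for counting error. The members, lists and rules were chosen with earlier results of these data known. Named sequences, arms and genes are the most read and the highest and lowest ratios above 1000 untreated reads, and the 3 most read of each list; some of them are not reported here. Alternatives were other scalings, lengths, mismatches, folds and read minimums. The scaling to candidate spike-ins, the stricter MILI-bound set and the sense matches with and without TGG after them were chosen after seeing the data.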

Additional observations from a re-analysis of the deposited data

Results flagged for a closer look

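The wild type and the Hen1 knockout moved in opposite directions with NaIO4 for 4 groups of reads, and the differences were not tested, since each group had 1 library. piRNA-like reads had a ratio of 0.358 in the knockout and 1.69 in wild type. MILI-bound sequences had a ratio of 0.358 in the knockout and 1.66 in wild type. snRNA and snoRNA reads had a ratio of 1.26 in the knockout and 0.410 in wild type. Reads with no class outside 25 to 31 nt had a ratio of 1.38 in the knockout and 0.863 in wild type.

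A signal also lay in reads that the comparisons do not use. The spike-in mixture named in the labels has no sequences in the sources used here. Candidates were therefore sought as sequences of 20 to 24 nt with no match to the reference. They needed at least 80 reads in each of the 3 untreated libraries and no read of the same sequence in the immunoprecipitate. Reads there that share a run of bases with a candidate numbered up to 21 per candidate. Of 16 candidates found, 5 had a higher share with NaIO4 in wild type, and these had ratios of 9.94 to 17.4 in the knockout. Summed, they had 6770 reads with NaIO4 and 2104 untreated in the knockout, a ratio of 14.5, against 4.49 in wild type. The 11 others summed to a ratio of 0.533 in the knockout and 0.134 in wild type. Whether any of them is a spike-in was not tested.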

How the results depend on the processing

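No paired analysis was possible because each group had 1 library. Only 808 of 6008 piRNA-like sequences passed 200 untreated reads in the knockout, so ratios of single sequences rest on few NaIO4 reads, and depth limits them more than the classes. The causes of the shifts that follow were not tested. Of 74 alternative values of the main results 11 stayed close to the reported one.
Per microRNA read, the piRNA-like, MILI-bound and tRNA ratios turned round, to 1.10, 1.10 and 1.93, as did the mitochondrial (1.72) and other small RNA (1.58) ratios. On that scale rRNA was at 48.1, the ratio of ratios at 0.0465, and the counts at 465 piRNA-like sequences higher and 2088 lower, 6 arms higher and 15 lower, 7 source genes higher and 187 lower.
Without the 10 most abundant sequences the ratios were 0.557 for piRNA-like and for MILI-bound reads, 0.507 for microRNAs, 14.7 for rRNA and 0.839 for tRNA, the ratio of ratios was 0.348, and 88 arms were lower.
With each distinct sequence counted once, MILI-bound (1.66), microRNA (1.52), tRNA (1.77), mitochondrial (1.49) and other small RNA (1.20) ratios turned round, as did the difference in mean length (-0.00014 nt, against 0.080 nt). piRNA-like was then at 0.707, rRNA at 5.22 and the ratio of ratios at 0.603.
Over all lengths piRNA-like and MILI-bound reads were at 0.346, microRNAs at 0.320, rRNA at 12.9 and tRNA at 0.623. With up to 1 mismatch piRNA-like reads were at 0.355, microRNAs at 0.332, rRNA at 14.7 and tRNA at 0.634. A window of 24 to 33 nt gave a mean length difference of 0.167 nt.
The 5 candidate spike-ins used for scaling were chosen because their share was higher with NaIO4 in wild type, so these values follow in part from that choice and are no survival fractions. Per read of them, piRNA-like and MILI-bound reads were at 0.0248, microRNAs at 0.0225, tRNA at 0.0434 and rRNA at 1.08. The Mir5099 locus (0.269), snRNA and snoRNA (0.0874) and unclassed reads (0.0951) turned round on that scale, the ratio of ratios was 0.0660, and 0 piRNA-like sequences, 0 arms and 0 source genes were higher.
The MILI-bound set enriched in the immunoprecipitate was at 0.277, piRNA-like reads with a sense match at 0.292, and those not followed by TGG at 0.276.
The 4-fold rule left 60 piRNA-like sequences higher and 3216 lower, 0 arms higher and 38 lower, 0 source genes higher and 790 lower. A higher read minimum gave 40 and 731 sequences, 1 and 75 arms, and 0 and 495 source genes, higher and lower. A lower one gave 972 and 52318 sequences and 4 and 5789 source genes.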

Other observations

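Source genes without the reads followed by TGG gave a median ratio of 0.269 over 2165 genes with enough reads in the knockout, with 2134 at least 2-fold lower and 1 higher. The ratios of the 154 microRNA arms in the knockout and in wild type had a Spearman correlation of 0.623 across arms, which share the libraries and their depth. The 22 nt tRNA fragments with the full CCA were frequent in the MILI immunoprecipitate, with 196600 reads for the one most read with NaIO4 in the knockout.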
